A study of Rattus norvegicus with 12 samples.

Results

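The comparison described here is the interaction of tert-butyl alcohol (TBA) with the anesthetic used at the end of the study, in rat renal cortex. It is the effect of TBA in rats bled under isoflurane minus the effect of TBA in rats bled under CO2-O2. It used all 12 of the 12 arrays of the series, 3 in each of 4 groups, assigned by the group named in each sample title. The treatment description in the labels speaks of 3 animals on water and 3 on TBA without naming the gas, so the 12 samples are taken as 12 rats from their titles. All rats were male Sprague-Dawley, Crl:CD(SD), bought at 5 weeks of age and dosed for 4 weeks. Both vehicle groups received water and both TBA groups received TBA at 1000 mg/kg/day. At 24 h after the last dose 1 vehicle and 1 TBA group were bled under CO2-O2 (4:1) and the other pair under isoflurane, so no rat was free of anesthetic. RNA of each renal cortex was labelled with Cy3 and hybridised to a 1-colour Agilent array.

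TBA is a tertiary alcohol and a metabolite of the fuel additive methyl tert-butyl ether. In male rats it is known to bind alpha-2u-globulin, a urinary protein made in liver and reabsorbed by the proximal tubule. Inhaled CO2 produces acute hypercapnia and respiratory acidosis, and isoflurane is a volatile anesthetic that lowers arterial pressure. An interaction asks whether the effect of the long treatment reads the same under either gas. A positive interaction means that TBA minus vehicle was higher under isoflurane than under CO2-O2, and a negative one that it was lower.

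Levels below are log2 signals minus the 75th percentile of their array, effects are differences between group means of such levels, and an interaction is the difference between both effects. The test was limma's moderated test with 1 mean per group, with Benjamini-Hochberg adjustment over the 31683 features that passed a filter on dim spots, 11689 of them with a gene symbol. The share of probes well above background ran from 61.6% to 71.0%, and r between rats within a group from 0.989 to 0.994. Lrp2 and Nphs1, defining genes of proximal tubule and podocytes, were well above background on all 12 arrays. Of 16 adrenal and liver markers 11 passed the filter, the adrenal gene Cyp21a1 among them at well above background on all 12 arrays, while Cyp11b1, Cyp11b2, Star, Dbh and Cps1 did not pass. In bulk tissue, fewer cells of a type and less RNA per cell cannot be told apart.

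The arrays lay on 3 slides, and this layout bears on every value below. Slide 1 held the 3 vehicle rats and rat 3 of the TBA group under CO2-O2. Slide 2 held TBA rats 1 and 2 under CO2-O2 and the 3 vehicle rats under isoflurane, and slide 3 held the 3 TBA rats under isoflurane. The interaction subtracts the TBA CO2-O2 and vehicle isoflurane groups, so 5 of the 6 subtracted arrays were on slide 2, while the added arrays were on slides 1 and 3. Slide 3 held no other group, and a fit with slide as a fixed term could not be estimated. Slide and interaction therefore cannot be told apart. TBA rat 3 under CO2-O2 links slides 1 and 2 only, so it bears on the effect under CO2-O2 and not on that under isoflurane. In a fit without this rat, 1995 features had a positive interaction at an unadjusted p under 0.05. In 43.6% of them rat 3 lay below all 3 vehicle rats of its own slide, the side that a positive interaction takes, and in 24.2% above them all, against 28.5% of all features lying below. Of the 2506 with a negative one, rat 3 lay above all 3 vehicle rats in 45.5% and below them in 19.9%, against 31.9% of all features lying above. The same vehicle rats entered the choice of features and these shares, which are therefore not independent of it.

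No gene passed the test for an interaction. In limma 0 of 31683 features (0.0%) had an adjusted p under 0.05, and the smallest was 0.0778. At an unadjusted p under 0.05 there were 3883 features (12.3%), of which 1803 were positive (5.69%) and 2080 negative (6.57%). Each gas allows 9 differences between a TBA and a vehicle rat. In 2124 features (6.7%) the differences under one gas did not overlap those under the other, with the isoflurane differences higher in 1056 (3.33%) and the CO2-O2 differences higher in 1068 (3.37%). TBA and vehicle rats separated in opposite directions under the gases in 509 features (1.61%). The 95% interval of the interaction had a median half-width of 0.38 (quartiles 0.26 and 0.61), against 0.27 for the effect under a single gas.

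**Figure D1:**
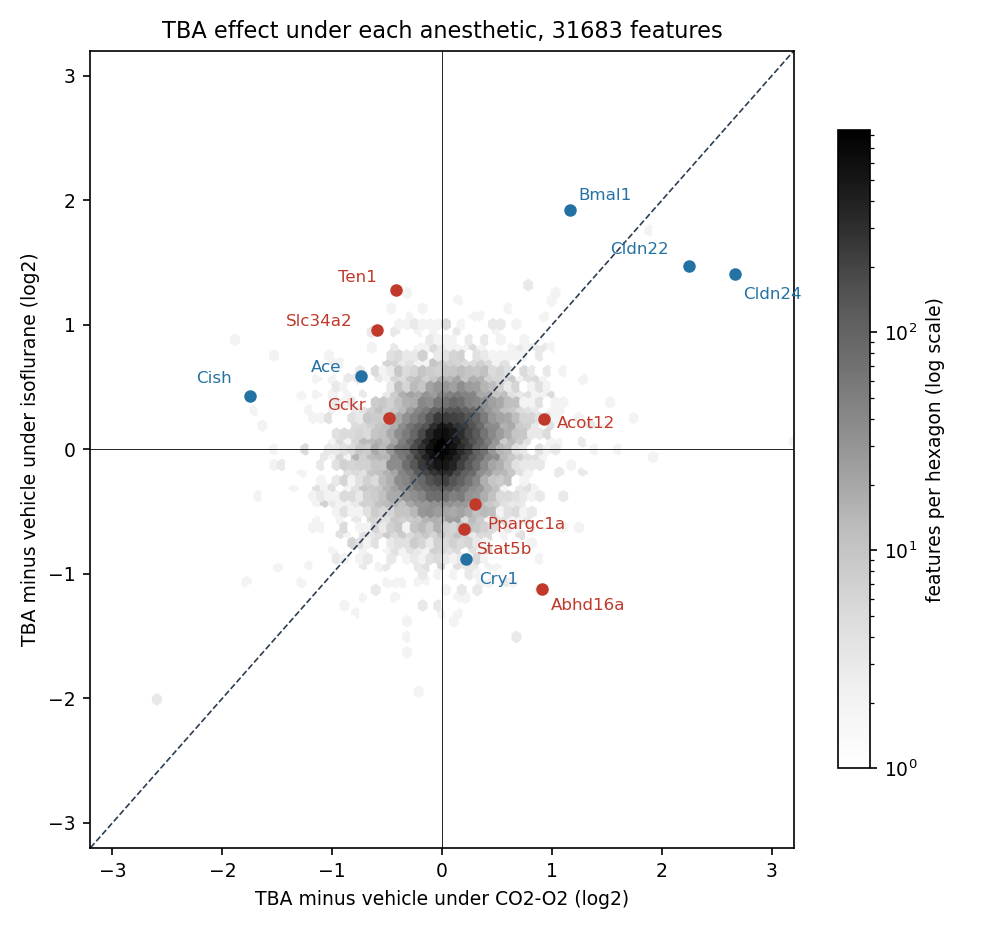
TBA minus vehicle under CO2-O2 (horizontal) against TBA minus vehicle under isoflurane (vertical), both in log2, for all 31683 features; hexagon shade gives the number of features on a log scale, and values beyond the axes are drawn at the edge. The dashed line marks an equal effect under either gas, red genes are among the 24 with the smallest unadjusted p, blue genes are others named in the text, and Ten1 lies 1.7 above the line while Abhd16a lies 2.03 below it.

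Across features the effects under the gases had a Pearson's r of 0.19 and a Spearman's rho of 0.15. They come from different rats, but slide 2 held arrays of either comparison and features are not independent replicates. TBA passed the adjusted threshold in 40 features under CO2-O2 (0.126%) and in 124 under isoflurane (0.391%), with 8 in both. These counts moved with single arrays: the first was 1 or 2 without any one of vehicle rats 1 to 3 or TBA rats 1 and 2 under CO2-O2, 25 without TBA isoflurane rat 3 and 154 without TBA CO2-O2 rat 3, and the second ran from 0 to 92 without any one of the 12. With slide as a random block they were 31 and 0, and with normexp background correction 80 and 1375. Of the 40, 38 had the same sign under isoflurane, with a median size of 0.83 under CO2-O2 and 0.44 under isoflurane. Of the 124, 89 had the same sign under CO2-O2, with a median size of 0.54 under isoflurane and 0.09 in that direction under CO2-O2. Each set was picked for its effect under one gas, so these medians describe the sets and test nothing.

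The gene with the smallest p was Abhd16a, a phosphatidylserine lipase. Its levels under CO2-O2 were 3.81, 3.62 and 3.8 in the vehicle rats and 4.66, 4.57 and 4.72 in the TBA rats. Under isoflurane they were 5.26, 4.79 and 4.5 in the vehicle rats and 3.84, 3.74 and 3.63 in the TBA rats. TBA rats were thus all above vehicle rats under CO2-O2 and all below them under isoflurane, and the TBA rat on slide 1 had the highest level of its group. The effects were 0.91 and -1.12, and the interaction was -2.03 (SE 0.23, 95% interval -2.53 to -1.52, unadjusted p = 4.91e-06, limma adjusted p = 0.0778). A single probe measured it. The interaction passed the adjusted threshold in 6 alternatives, with normexp (0.0344), only probes well above background on all arrays (0.0483), scan day as a term (0.0452), trended robust moderation (0.029), and without vehicle isoflurane rat 1 (0.00696) or rat 3 (0.0223). The limma adjusted p was 0.17 with slide as a random block and 0.271 without vehicle isoflurane rat 2.

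Ppargc1a encodes PGC-1alpha, a transcriptional coactivator of mitochondrial biogenesis and gluconeogenesis. Under CO2-O2 its levels were -0.68, -0.83 and -0.67 in vehicle rats and -0.45, -0.4 and -0.44 in TBA rats. Under isoflurane they were -0.34, -0.28 and -0.28 in vehicle rats and -0.62, -0.85 and -0.76 in TBA rats. The groups did not overlap under either gas and their order turned over, with the vehicle rats under isoflurane the highest of all. The effects were 0.3 and -0.44, the latter past the adjusted threshold (limma adjusted p = 0.0456), and the interaction was -0.74 (SE 0.1, limma adjusted p = 0.125).

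Transcription of Ppargc1a is classically induced through CREB, the cAMP-responsive factor that binds TGACGTCA. The 250 bases before the start of rat Ppargc1a in RefSeq (GRCr8, chr14:63634058-63634307, plus strand) are shown because this gene had one of the smallest p-values. Another reason is that the salt-inducible kinase Sik1, which restrains CREB coactivators, also had a negative interaction. A link between both genes was not tested. Capitals mark the single match, 181 to 174 bases before the start.

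Ppargc1a: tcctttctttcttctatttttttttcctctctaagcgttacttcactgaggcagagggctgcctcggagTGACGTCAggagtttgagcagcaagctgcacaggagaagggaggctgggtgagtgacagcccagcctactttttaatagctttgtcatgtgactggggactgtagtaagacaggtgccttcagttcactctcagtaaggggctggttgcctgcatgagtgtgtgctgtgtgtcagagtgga

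The element reads the same on both strands, and 490 of 27457 genes with such a window hold it (1.78%). Of 9 salt-inducible kinases and CREB partners with a window, 2 hold it, Crem and Ppargc1a. The match overlaps none of the other motifs searched and is a description of letters, not a measured binding site. Sik1 stood at -1.59, -1.82 and -1.72 in vehicle and -2.03, -1.76 and -1.99 in TBA rats under CO2-O2, and at -1.01, -0.65 and -0.89 and then -1.54, -1.78 and -1.51 under isoflurane. The vehicle rats under isoflurane were again the highest, TBA and vehicle overlapped under CO2-O2, and the interaction was -0.55 (SE 0.17, unadjusted p = 0.00801, limma adjusted p = 0.277). Over the list of kinases and partners, 5 of 10 measured genes were positive, 2 had an unadjusted p under 0.05, both negative (20.0%, against 12.3% of all features), and the median was -0.06.

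On the positive side Ten1, a subunit of the telomere-associated CST complex, had the smallest p. Under CO2-O2 its levels were -0.16, -0.3 and -0.11 in vehicle and -0.53, -0.79 and -0.51 in TBA rats. Under isoflurane they were -1.62, -1.54 and -1.27 in vehicle and 0.09, -0.54 and -0.14 in TBA rats. The vehicle rats under isoflurane were the lowest of the 12, and the groups separated under both gases in opposite directions. The effects were -0.42 and 1.28, and the interaction was 1.7 (SE 0.22, 95% interval 1.2 to 2.2, limma adjusted p = 0.125). That adjusted p was 0.0428 with normexp and 0.218 with slide as a random block.

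Gckr encodes the regulatory protein that holds glucokinase inactive. Under CO2-O2 it was at -3.3, -3.13 and -3.21 in vehicle and -3.68, -3.65 and -3.75 in TBA rats, and under isoflurane at -3.48, -3.59 and -3.65 in vehicle and -3.25, -3.34 and -3.4 in TBA rats. TBA rats lay below vehicle rats under CO2-O2 (-0.48, limma adjusted p = 0.0434) and above them under isoflurane (0.25, limma adjusted p = 0.125), without overlap. The interaction was 0.73 (SE 0.1, limma adjusted p = 0.125).

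Slc34a2, a sodium-dependent phosphate cotransporter, showed the same turn. Its levels were -2.82, -2.98 and -2.9 in vehicle and -3.56, -3.29 and -3.62 in TBA rats under CO2-O2, and -4.88, -4.73 and -4.52 in vehicle and -3.34, -4.05 and -3.87 in TBA rats under isoflurane. All 3 vehicle rats under isoflurane were below every other rat. The interaction was 1.55 (SE 0.24, limma adjusted p = 0.176), and with normexp background correction it was smaller, 0.93, with a limma adjusted p of 0.0428. With slide as a random block the limma adjusted p was 0.312.

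**Figure D2:**
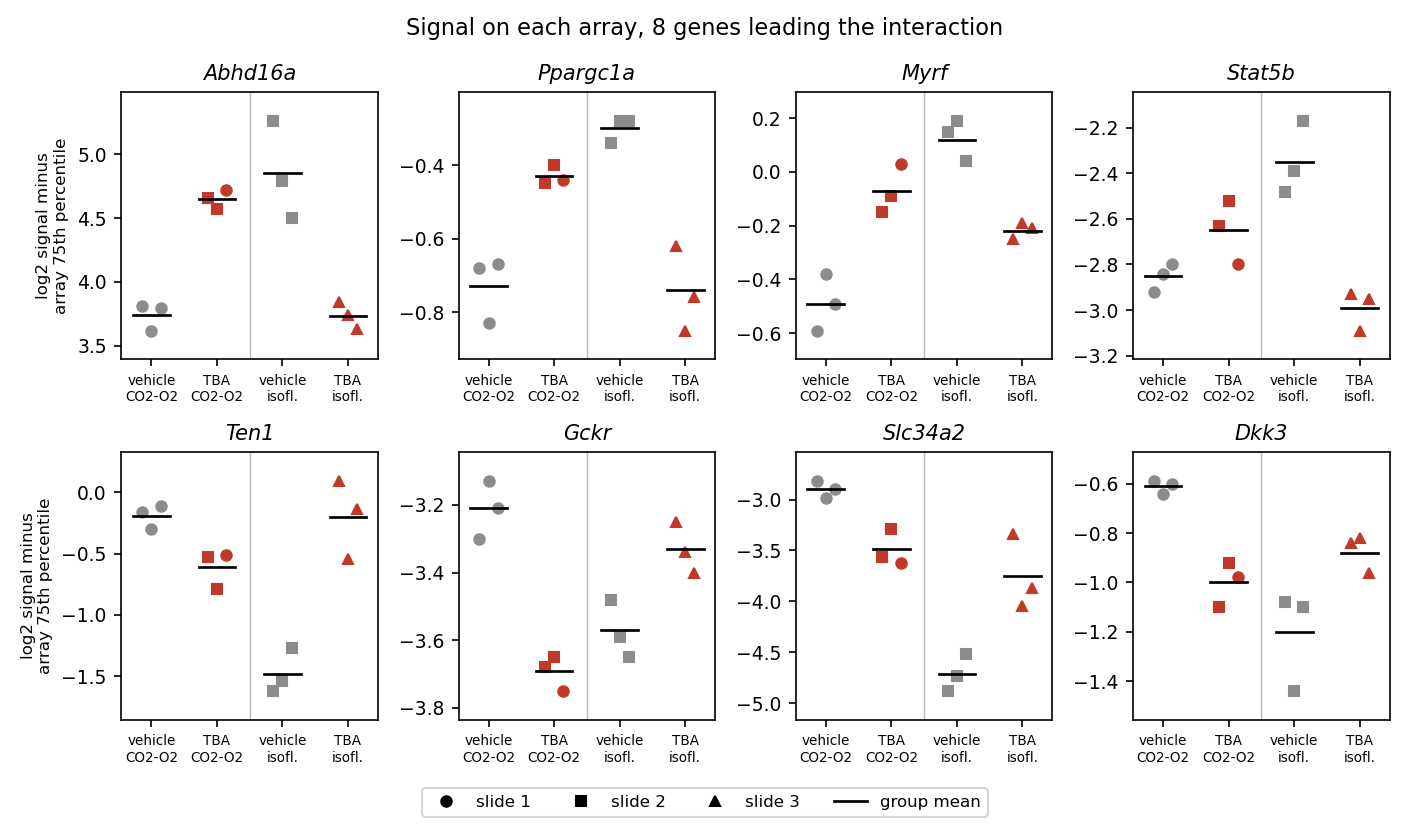
Log2 signal minus the 75th percentile of the array for 8 genes on each of the 12 arrays; points are rats (grey vehicle, red TBA), their shape gives the slide, and bars are means of 3 rats. TBA lies above vehicle under CO2-O2 and below it under isoflurane in Abhd16a, Ppargc1a and Myrf, the order is the reverse in Ten1, Gckr, Slc34a2 and Dkk3, and in Stat5b the groups meet at -2.8 under CO2-O2.

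Opposite order without overlap was seen on the negative side in Myrf, a membrane-bound transcription factor (0.41 under CO2-O2 and -0.34 under isoflurane). Its interaction was -0.76, or -0.23 at its second probe. The limma adjusted p was 0.125, against 0.047 with scan day as a term and 0.218 with slide as a random block. Such order was also seen in Cdk18, a PCTAIRE-family kinase (0.35 and -0.25, with an interaction of -0.59, or -0.3 with normexp). On the positive side it was seen in Jag1, a Notch ligand (-0.42 and 0.35), in Dkk3, a secreted Dickkopf-family protein (-0.39 and 0.33), and in C1qtnf2, a secreted C1q/TNF-related protein (-0.82 and 0.38). Tns4, a tensin, had effects of -0.64 and 0.48. Paip1, which binds poly(A)-binding protein, had -0.23 and 0.31, and its 4 probes gave interactions from 0.2 to 0.6.

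Separation under isoflurane alone was seen in Psapl1, a prosaposin-like gene (0.04 under CO2-O2 and 0.65 under isoflurane), and in Zdhhc18, a palmitoyltransferase (0.04 and 0.64). Their interactions of 0.61 and 0.6 were 0.31 and 0.38 with normexp, and the 3 probes of Zdhhc18 ran from 0.15 to 0.6. In Ramp2, the receptor partner for adrenomedullin, the effects were 0.02 and -0.51, and its probes gave interactions of -0.53 and -0.23. In Lztr1, an adaptor of a cullin ubiquitin ligase, they were 0.14 and -0.44, and in the tetraspanin Tspan4 0.13 and -0.53. Limma adjusted p-values of the interaction in these 5 genes were 0.176 to 0.204.

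Taking the 12 genes of each direction with the smallest p among those whose differences did not overlap, the size of the interaction ran from 0.37 to 2.03. A single kept probe measured 16 of the 24, and of the 8 with several probes, 7 had the same sign at every probe. TBA and vehicle separated in opposite directions in 14 of the 24, under isoflurane alone in 9, and in the same direction under both gases in 1. The interaction is also the gas difference in TBA rats minus that in vehicle rats. Read that way, the isoflurane minus CO2-O2 difference was larger in the vehicle rats in 19 of the 24, with a median size of 0.48 in vehicle and 0.25 in TBA rats. It was larger in the vehicle rats in 57.2% of all 31683 features. These counts describe genes chosen by their p and test nothing.

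Apart from Abhd16a, the largest interactions at an unadjusted p under 0.01 that are given here had wide intervals. RT1-CE15, a class I histocompatibility gene, was at -1.68, -2.99 and -1.44 in vehicle and -2.66, -3.05 and -3.36 in TBA rats under CO2-O2, and at -3.41, -3.63 and -3.78 and then -1.6, -2.96 and -0.51 under isoflurane. The TBA rats under isoflurane were far apart from each other, and the interaction was 2.9 (95% interval 1.11 to 4.68, limma adjusted p = 0.258). RT1-CE3 had 1.99 (0.73 to 3.26). Genes of this polymorphic family are near-identical, so which of them a probe read is uncertain.

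Slc7a12, an amino acid transporter, had an interaction of 2.76 (95% interval 1.03 to 4.49). Its vehicle rats under CO2-O2 were at 2.37, 1.76 and 2.53, above the TBA rats at 1.33, -0.14 and -0.22, while under isoflurane vehicle rats at -0.12, -0.11 and 0.48 overlapped TBA rats at 1.98, -0.18 and 1.04. Ccn6, a matricellular protein, had 2.28 (0.98 to 3.57). P3h3, a collagen prolyl hydroxylase, had -2.25 (-3.83 to -0.67), with -0.52 at its other probe and -1.38 for the mean of both. The spots of Or12j3, Rd3l and Prss34 did not stand well above background in any of the TBA isoflurane rats, and no fold is given for them.

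Growth hormone acts on its receptor Ghr and the factors Stat5a and Stat5b, which raise transcription of Igf1 and of the feedback inhibitors Cish and Socs2. Of 17 measured genes of this axis, 4 had a positive and 3 a negative interaction at an unadjusted p under 0.05 (41.2%, against 12.3% of all features). None passed the adjusted threshold, and the median of the 17 was 0.04. Cish, Socs2, Igfbp1 and Stat5a are named after their values were seen.

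Igf1, the growth factor itself, was at 3.04, 2.87 and 2.78 in vehicle and 1.94, 1.92 and 2.11 in TBA rats under CO2-O2. Under isoflurane it was at 2.9, 2.47 and 2.48 in vehicle and 2.63, 2.41 and 2.43 in TBA rats, which overlapped. Igf1 fell by 0.91 under CO2-O2 (limma adjusted p = 0.034) and differed by -0.13 under isoflurane (95% interval -0.41 to 0.15). The interaction was 0.78 (SE 0.18, unadjusted p = 0.00137, limma adjusted p = 0.232), and its 3 probes gave 0.33 to 0.87.

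Stat5b was at -2.92, -2.84 and -2.8 in vehicle and -2.63, -2.52 and -2.8 in TBA rats under CO2-O2, where TBA rat 3, the one on the vehicle rats' slide, stood at their level. Under isoflurane it was at -2.48, -2.39 and -2.17 in vehicle and -2.93, -3.09 and -2.95 in TBA rats, without overlap. The effects were 0.2 and -0.64, and the interaction was -0.84 (SE 0.14, limma adjusted p = 0.181). Stat5a had 0.04 (95% interval -0.46 to 0.55).

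Cish was at 0.91, 0.36 and 0.77 in vehicle and -1.32, -0.13 and -1.76 in TBA rats under CO2-O2, and at -0.7, -0.59 and -1.27 in vehicle and -1.08, 0.89 and -1.09 in TBA rats under isoflurane. The groups separated under CO2-O2, while under isoflurane 1 TBA rat stood far above the others. The interaction was 2.18 (SE 0.77, 95% interval 0.45 to 3.91, unadjusted p = 0.0186, limma adjusted p = 0.327). Cish is a textbook target of STAT5, whose element is TTCNNNGAA. The 250 bases before its start in RefSeq (GRCr8, chr8:116850719-116850968, plus strand) are shown because they hold 4 matches, in capitals, the first 241 and the last 111 bases before the start.

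Cish: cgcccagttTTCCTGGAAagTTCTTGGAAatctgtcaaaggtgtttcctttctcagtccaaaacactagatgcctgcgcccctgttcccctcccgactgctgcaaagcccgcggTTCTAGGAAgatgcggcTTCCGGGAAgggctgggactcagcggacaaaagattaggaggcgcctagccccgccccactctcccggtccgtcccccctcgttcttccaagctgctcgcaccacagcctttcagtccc

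This element also reads the same on both strands, and 2250 of 27457 genes hold it (8.19%). Of the 16 axis genes with a window, 1 holds it. The matches overlap none of the other motifs searched and say nothing of binding in these rats.

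Ghr had an interaction of 0.33 (SE 0.09), but its 4 probes ran from -0.08 to 0.33 and their mean gave 0.08. Socs2 had 1.18 (SE 0.5, unadjusted p = 0.0403), or 0.45 with normexp. The inhibitor Socs3, which also answers to cytokines, had -0.56 (SE 0.21, unadjusted p = 0.0232), with TBA above vehicle by 0.76 under CO2-O2 and 0.2 under isoflurane, and the interaction was -0.27 with normexp and -0.2 with scan day as a term. Igfbp1, a secreted IGF-binding protein, had -0.56 (SE 0.24, unadjusted p = 0.0461).

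**Figure D3:**
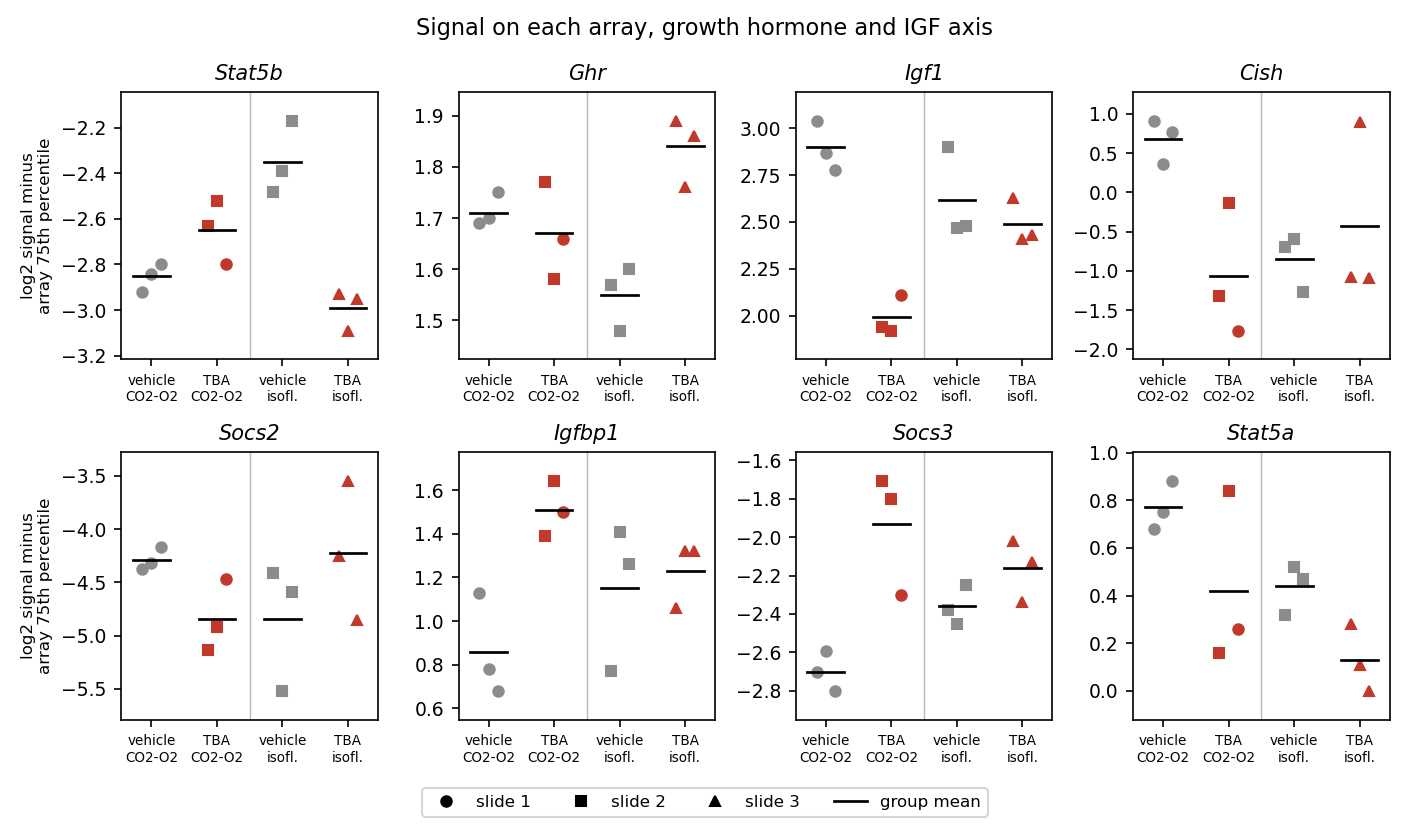
Log2 signal minus the 75th percentile of the array on each of the 12 arrays for 8 genes of the growth hormone axis; points are rats (grey vehicle, red TBA), shapes are slides, and bars are means of 3 rats. TBA rats lie below vehicle rats under CO2-O2 in Igf1 and Cish and overlap them under isoflurane, and in Stat5b TBA lies below vehicle under isoflurane.

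Other genes had TBA effects of the same sign under both gases, among them Cldn24, Cldn22, Hrh4, Nus1 and Acot12. The claudins form tight junctions, and Cldn24 was at -4.56, -4.8 and -4.64 in vehicle and -1.74, -2.18 and -2.1 in TBA rats under CO2-O2. Under isoflurane it was at -3.19, -3.44 and -4.38 in vehicle and -1.93, -2.47 and -2.39 in TBA rats. TBA rats were the higher under either gas, and the vehicle rats under isoflurane spread upwards. The effects were 2.66 (limma adjusted p = 0.0124) and 1.41 (limma adjusted p = 0.0665), and the interaction was -1.25 (SE 0.39, unadjusted p = 0.00921), or -0.43 with normexp.

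Cldn22 rose by 2.25 under CO2-O2 and by 1.47 under isoflurane, both past the adjusted threshold. Its interaction was -0.78 (SE 0.33, unadjusted p = 0.0409), -0.45 with normexp, and -0.5 (unadjusted p = 0.0722) without rat 1 of the vehicle isoflurane group. Over 18 measured claudins 13 interactions were positive, against 15907 of all 31683 features. At an unadjusted p under 0.05 there were 3 in each direction (33.3%, against 12.3% of all features). The median was 0.19, and 0.06 without rat 2 of the vehicle CO2-O2 group. Cldn1 had 0.8, but its 3 probes ran from -0.16 to 1.27. Cldn14 had 1.02, with 3.14 at its other probe and 0.59 with normexp.

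Hrh4, a histamine receptor, had effects of 1.53 and 0.68, and Nus1, needed for dolichol synthesis, 1.44 and 0.81. Their interactions were -0.85 and -0.63, but other probes of these genes gave -0.07 and 0.04, and the means of their probes -0.46 and -0.24. Acot12, a cytosolic acetyl-CoA hydrolase, was at 0.02, 0.03 and 0.1 in vehicle and 1.02, 0.9 and 1.03 in TBA rats under CO2-O2. Under isoflurane it was at 0.52, 0.56 and 0.39 in vehicle and 0.65, 0.76 and 0.78 in TBA rats. TBA rats were higher under either gas, by 0.93 (limma adjusted p = 0.00337) and by 0.24 (limma adjusted p = 0.122). The interaction was -0.69 (SE 0.1, limma adjusted p = 0.125). That adjusted p was 0.0428 with normexp and 0.218 with slide as a random block.

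Wsb1, a subunit of a ubiquitin ligase, rose under both gases, by 0.88 and 1.11, with an interaction of 0.23 (95% interval -0.09 to 0.56). Fos, an immediate early transcription factor, had 0.76 and 0.84, with an interaction of 0.08 (-0.53 to 0.69), but of 0.77 at its second probe. Glud1, the glutamate dehydrogenase of renal ammonia production, had 0.55 and 0.71 and an interaction of 0.16 (-0.17 to 0.49). The intervals leave room for differences of either sign.

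**Figure D4:**
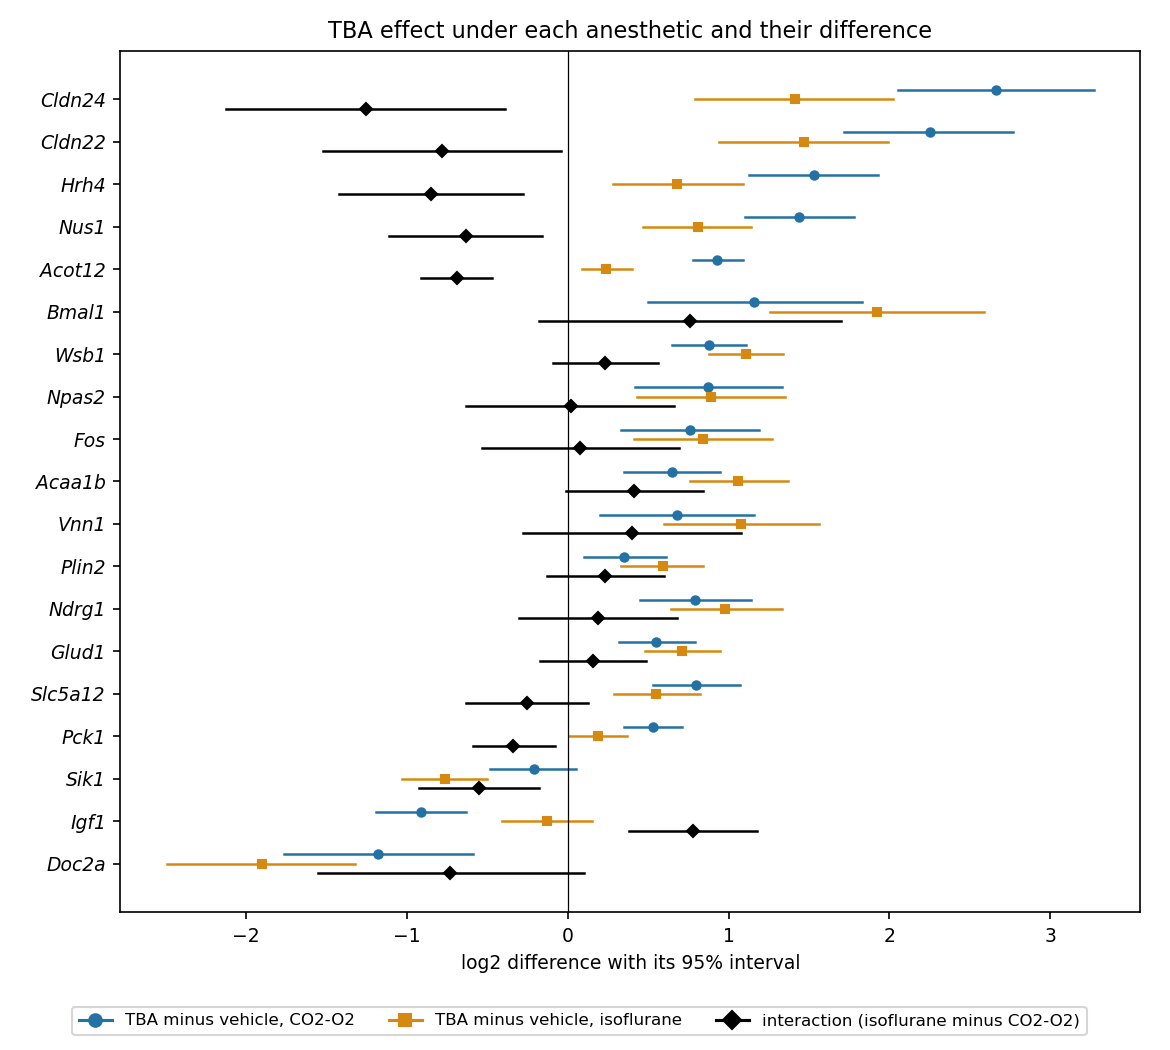
TBA minus vehicle under CO2-O2 (circles) and isoflurane (squares) and their difference, the interaction (diamonds), in log2 with 95% intervals, for 19 genes, 3 rats a group. The interaction's interval lies below 0 in Cldn24, Cldn22, Hrh4, Nus1, Acot12, Pck1 and Sik1, above 0 in Igf1, and includes 0 in the other genes.

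The circadian clock pairs the activators Bmal1 and Npas2 with the Per and Cry repressors. Bmal1 was at -0.54, -0.53 and 0.22 in vehicle and 1.51, 0.82 and 0.32 in TBA rats under CO2-O2, and at -2.68, -3.03 and -2.44 in vehicle and -0.68, -0.86 and -0.84 in TBA rats under isoflurane. TBA rats were higher under either gas. The interaction was 0.76 (SE 0.42, unadjusted p = 0.102), and that of Npas2 was 0.02 (95% interval -0.63 to 0.66).

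The repressor Cry1 was at -1.43, -1.36 and -1.34 in vehicle and -0.7, -1.29 and -1.49 in TBA rats under CO2-O2, which overlapped. Under isoflurane its vehicle rats, at -0.62, 0.04 and -0.56, all lay above its TBA rats, at -1.34, -1.25 and -1.2. The interaction was -1.1 (SE 0.3, unadjusted p = 0.004, limma adjusted p = 0.251), and that of Cry2 was -0.31 (SE 0.12, unadjusted p = 0.0263). Of 12 measured repressors these 2 had an unadjusted p under 0.05 (16.7%, against 12.3% of all features). None of 5 activators did, and 1 of 9 output genes did (11.1%).

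Inhaled CO2 acidifies the blood, and the renal answer to acid runs through bicarbonate transport and through ammonia made from glutamine. Of 23 measured acid-base transporters and carbonic anhydrases, 4 had an interaction above 0, against 15907 of all 31683 features, and the median was -0.15. Only 2 had an unadjusted p under 0.05 (8.7%, against 12.3% of all features), Slc4a4, the basolateral bicarbonate cotransporter, and Car12, a membrane carbonic anhydrase. Slc4a4 was at 5.22, 5.22 and 5.25 in vehicle and 5.77, 5.69 and 5.92 in TBA rats under CO2-O2, and at 5.51, 5.5 and 5.21 and then 5.4, 5.66 and 5.41 under isoflurane. TBA and vehicle separated under CO2-O2 (0.56) and overlapped under isoflurane (0.08), and the interaction was -0.48 (SE 0.15, limma adjusted p = 0.277). Car12 had -0.44 (SE 0.13).

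The 26 genes of ammonia production and gluconeogenesis had a median of 0.01. Among them, 3 positive and 4 negative interactions had an unadjusted p under 0.05 (26.9%, against 12.3% of all features). Besides Gckr these included Slc7a7, a cationic amino acid transporter (-0.57, SE 0.16), and Got2, the mitochondrial aspartate aminotransferase (-0.3, SE 0.08). Mdh2, the mitochondrial malate dehydrogenase, named after its values were seen, had -0.28 (SE 0.09). Pck1, the rate-limiting enzyme of gluconeogenesis, had effects of 0.53 and 0.19 and an interaction of -0.34 (SE 0.11, unadjusted p = 0.0151).

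PPAR-alpha drives fatty acid oxidation. Of 51 measured targets, 37 interactions were positive, against 15907 of all 31683 features. At an unadjusted p under 0.05 there were 2 positive and 3 negative ones (9.8%, against 12.3% of all features). The median was 0.16, with median effects of 0.18 under CO2-O2 and 0.31 under isoflurane. Acaa1b, the peroxisomal thiolase, had 0.65 and 1.06, with an interaction of 0.41 (95% interval -0.01 to 0.84). Vnn1, a pantetheinase, had 0.4 (-0.28 to 1.08), and Plin2, a lipid droplet protein, 0.23 (-0.13 to 0.6).

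The highest value of this list rests on a single dark spot, in Acot1, an acyl-CoA thioesterase with near-identical copies, which is named after its values were seen. Acot1 read -7.19 in vehicle isoflurane rat 3 and no less than 4.84 in the other 11 rats. Its interaction of 4.43 became 0.37 (SE 0.16) without that spot.

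Of 11 measured genes of the renin-angiotensin system, 1 had an unadjusted p under 0.05 (9.09%, against 12.3% of all features). This was angiotensin-converting enzyme, Ace. It was at -0.49, -0.65 and -0.73 in vehicle and -1.14, -1.54 and -1.4 in TBA rats under CO2-O2, without overlap. Under isoflurane it was at -1.89, -1.04 and -1.27 in vehicle and -0.42, -1.14 and -0.87 in TBA rats, which overlapped. The interaction was 1.33 (SE 0.33, unadjusted p = 0.00235, limma adjusted p = 0.236), and 3 probes gave 1.31 to 1.34.

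Interferon response genes had a median interaction of 0.48, with 25 of 28 above 0 but 3 at an unadjusted p under 0.05, a share below that of all features. These were Psmb9, an immunoproteasome subunit (0.81, SE 0.25), Ifi47, a GTPase (0.83, SE 0.35), and Bst2, which tethers virions (1.28, SE 0.52). The list's median was 0.18 without rat 2 of the TBA isoflurane group, in which Ifi47 read -0.31 against -1.31 in both other TBA rats and Bst2 read 3.15 against 2.42 and 2.06. Without that rat Ifi47 had 0.5, and it had 0.51 with normexp, while Bst2 had 0.85 without vehicle isoflurane rat 2. Of 20 measured immune cell markers 13 were positive, and the median was 0.06. Of these markers 1 had an unadjusted p under 0.05 (5.0%, against 12.3% of all features). The part of immune cells in the interferon values was not tested.

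Of 13 measured genes listed as markers of the S3 proximal tubule, 12 were above 0, with a median of 0.53. Over all 31683 features 15907 were above 0. Of the S3 genes 2 had an unadjusted p under 0.05 (15.4%, against 12.3% of all features). These were Slc5a1, a glucose cotransporter (0.53, or 0.27 with normexp), and Aqp1, a water channel not confined to S3 (0.38, or 0.24 with quantile normalization). Of 18 markers of the S1 and S2 segments 8 were above 0, with a median of -0.05. Among these, 2 positive and 3 negative interactions had an unadjusted p under 0.05 (27.8%, against 12.3% of all features), a larger share than in S3. A difference in the share of S3 in the dissected cortex was not tested. Endothelial markers had a median of -0.17, with 3 of 11 above 0. The 2 at an unadjusted p under 0.05 (18.2%, against 12.3% of all features) were the angiopoietin receptor Tek (-0.42, or -0.21 with normexp) and Tie1 (-0.48).

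**Figure D5:**
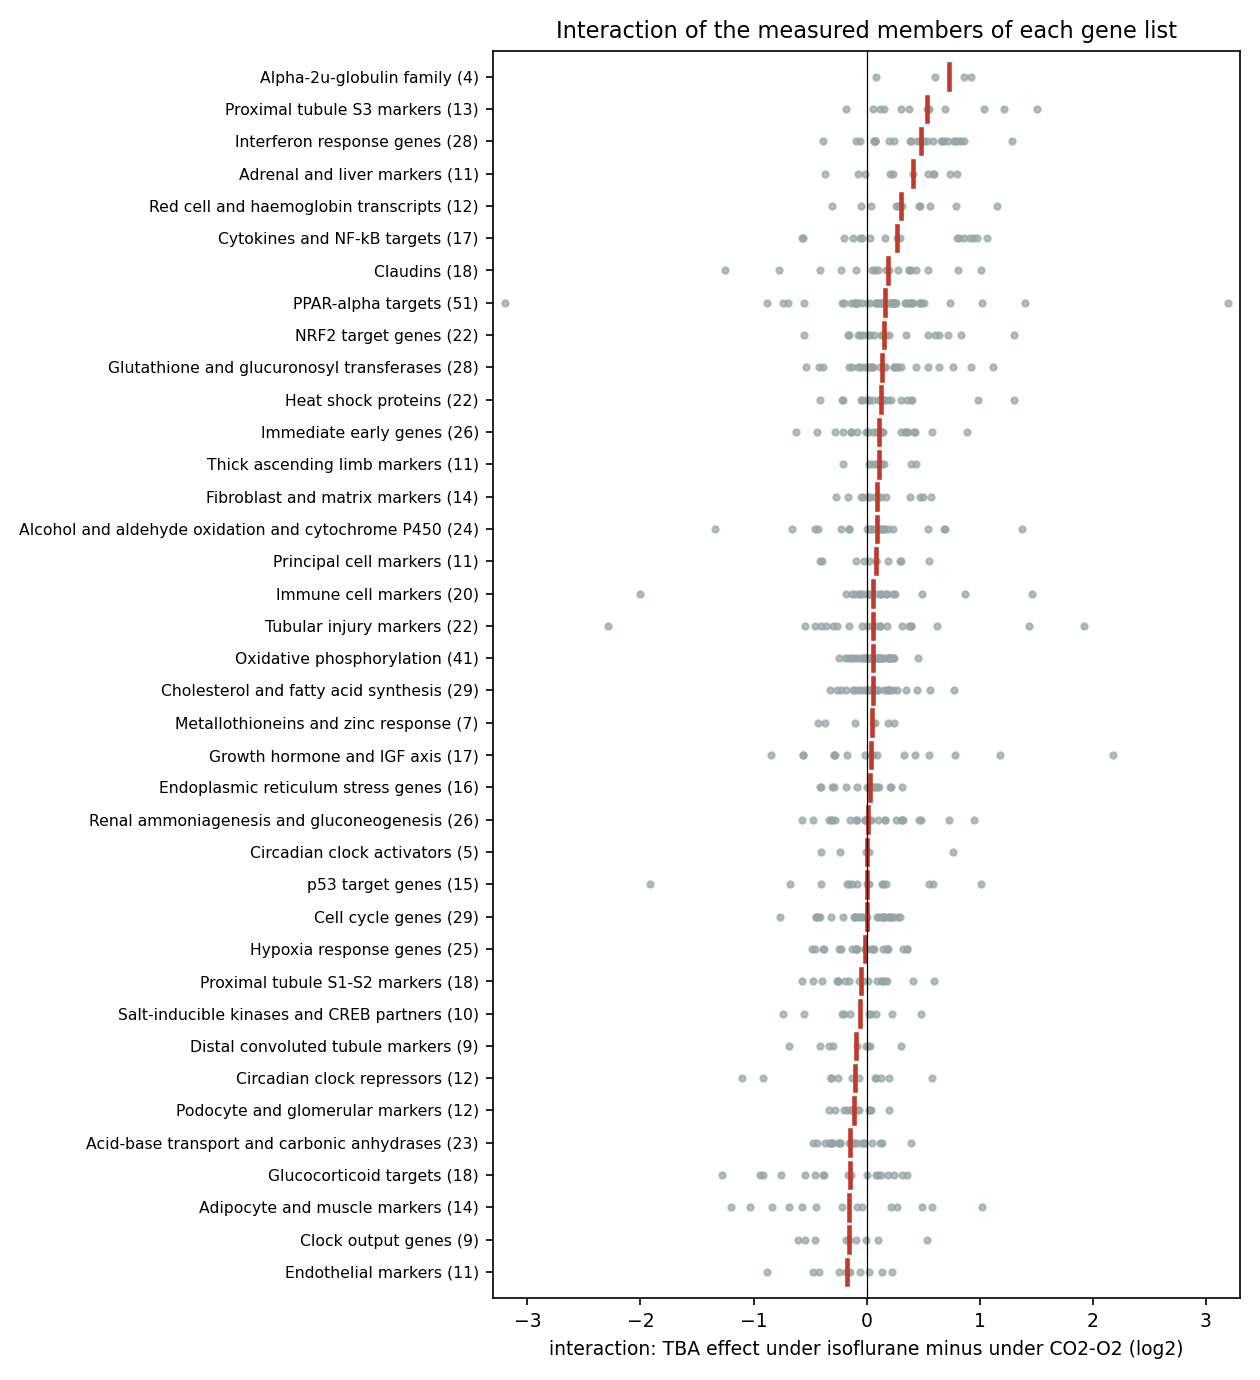
Interaction in log2 for every measured member (grey points) of 38 of the 39 gene lists. The number measured is in brackets, the list's median is a red bar, and values beyond 3.2 are drawn at the edge. The renin-angiotensin list is not drawn. Medians run from -0.17 in endothelial markers to 0.73 in the alpha-2u-globulin family, while single members spread over both sides of 0 in most lists.

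The alpha-2u-globulin family, proteins that TBA is known to bind in male rats, varied widely between rats of a group. Mup5 was at -0.67, -0.36 and -0.25 in vehicle and -3.96, -4.46 and -1.21 in TBA rats under CO2-O2, and at 0.07, 1.3 and -1.22 in vehicle and -0.49, -3.05 and -1.91 in TBA rats under isoflurane. TBA was lower in the means under either gas, and the interaction was 0.92 (95% interval -2.0 to 3.84, unadjusted p = 0.497). All 4 measured members were above 0, from 0.09 to 0.92, with a median of 0.73. None of them had an unadjusted p under 0.05, and Rup2 had 0.86, or -0.05 at its other probe. Of 11 measured adrenal and liver markers 8 were above 0, with a median of 0.41, and their part in the family's values was not tested.

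Tubular injury markers had a median of 0.06 over 22 genes, 2 of them at an unadjusted p under 0.05 (9.09%, against 12.3% of all features). Krt19, an epithelial keratin, had 1.92 (95% interval 0.47 to 3.38) and Lcn2, the injury marker NGAL, -2.29 (-5.55 to 0.97). The value of Lcn2 was -1.19 without vehicle CO2-O2 rat 2, -1.22 without TBA isoflurane rat 3 and -0.97 with normexp. In a separate list of 15 measured p53 target genes, 3 had an unadjusted p under 0.05 (20.0%, against 12.3% of all features). Of these, Gdf15, a stress-induced cytokine, was at -0.26, 0.49 and -0.39 in vehicle and 0.15, 0.07 and 0.03 in TBA rats under CO2-O2. Under isoflurane it was at -0.64, -0.97 and -0.41 in vehicle and 0.46, 0.56 and 0.43 in TBA rats. TBA and vehicle overlapped under CO2-O2 and separated under isoflurane, and the interaction was 1.02 (SE 0.3, unadjusted p = 0.00667, limma adjusted p = 0.271). Of 26 immediate early genes 4 had an unadjusted p under 0.05, all positive (15.4%, against 12.3% of all features). Among them was Egr1 (0.89, SE 0.34, or 0.56 with scan day as a term).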

How the data were processed

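The gene lists and the rules for naming genes were chosen with earlier results of these data known. The intensity values of 12 scanner files were made by the authors with Agilent Feature Extraction 10.7, per the submitters' processing notes, and the processed signal had been background-subtracted and detrended within the array, per the file headers. The deposited series table gives linear ratio values that the authors made, by a method not given in the sources used here. In the data its columns fitted the processed signal over the 75th percentile, but none of 12 fitted the array of its own label best and all 12 fitted another replicate of that group. The table served as an alternative only.

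The processed signal was used as log2 minus the array's 75th percentile. A non-control probe was kept if the scanner software called it well above background in all rats of 1 or more groups, which left 40216 of 61657. The probes' transcript accessions were matched to RefSeq without versions, giving 1 symbol for 27460 probes and none for 34197. A gene was read from its brightest kept probe, and each unnamed probe counted as a feature. Limma 3.58.1 (R 4.3.3) fitted all 12 arrays without covariates after the script was tested on simulated data. The number of arrays limits the precision.

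Genes named in the text were the 12 per direction with the smallest p among those whose differences did not overlap, the 5 per direction with the largest interaction at p under 0.01, up to 3 per list with the smallest p and a preset set, less those that added nothing. Others are marked. Alternatives were the background correction, scaling, series table, dim-probe filter, probe rule, slide, scan day and replicate blocks, moderation, array weights and leaving out each array. Chosen after seeing the data were 1 feature per accession, named features only, dark spots left out and a fold of at least 2. Promoter windows are RefSeq's of GRCr8. Some genes are not reported here.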

Additional observations from a re-analysis of the deposited data

Results flagged for a closer look

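TBA and vehicle rats separated without overlap in opposite directions under the gases in 292 features with TBA above vehicle under CO2-O2 and below it under isoflurane, Abhd16a and Ppargc1a among them. In 217 features the order was the reverse, Ten1 and Gckr among them. The difference between the gases was tested in each feature with limma, and 0 of 31683 passed the adjusted threshold, while 3883 had an unadjusted p under 0.05. Groups of 3 are too small to screen for single outlying arrays.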

How the results depend on the processing

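Of 29 alternatives, 23 gave no called feature, as did the reported fit. Normexp background correction gave 7, a filter for probes well above background on all arrays 2, scan day as a fixed term 43, and trended robust moderation 2. Leaving out 1 array gave 0 to 5, with 5 without vehicle isoflurane replicate 1 and 2 without vehicle isoflurane replicate 3. The fit with scan day rests on rat 3 of the TBA CO2-O2 group. Slide as a random block gave 0 calls, with 2891 features at an unadjusted p under 0.05. With the replicate number as a block 0 features were called. Correlations of deviations from the group means ran from -0.132 to 0.125 in same-numbered arrays, with 3 of 18 over 0.1. In differently numbered arrays they ran from -0.189 to 0.22, with 2 of 36 over 0.1. Deviations in groups of 3 cannot show whether the numbers pair the rats, and the reported fit used no pairing. The count at an unadjusted p under 0.05 ran from 3174 to 4501 when 1 array was left out and from 1437 to 6345 over all alternatives. These did not all test the same number of features. The 1437 were among the 11689 features with a symbol, and the 6345, with normexp, among all 31683. The replicate block gave 3 calls of TBA under CO2-O2 and 0 under isoflurane. Of 106 named genes at an unadjusted p under 0.05, 1 changed sign in 2855 alternative values, Atp5f1b, at -0.25 as reported and 0.0 with normexp, and the cause was not tested. The 24 leading genes kept their sign in all 647 alternative values. Scaling moved the median of all features by at most 0.07. Signal near background limits dim probes, for which normexp moved the interaction of Cldn24 from -1.25 to -0.43 and of Slc34a2 from 1.55 to 0.93, the latter with a lower limma adjusted p (0.0428 against 0.176). Abhd16a passed in all 6 alternatives that gave any call.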
